A study of Mus musculus with 24 samples.

Results

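The transcripts of 9 of 10 listed cohesin genes were examined in growing mouse oocytes among 16572 gene names. They were found by exact name, each as 1 row: the meiotic subunits Smc1b and Stag3, the general subunits Smc3, Smc1a, Rad21 and Stag2, and 3 further genes, Sgo2a, Wapl and Ctcf. Rec8, the listed meiotic kleisin, was not analysed here. RNA-seq had been made from class IV oocytes, which are the largest oocytes of a follicle-free culture begun from dissociated ovaries of 7-day-old mice (strain label C57BL/6 Barb), with 2 libraries per oxygen condition. Collection followed 9 days at 5% oxygen for IV 5% O2 and 14 days at 20% oxygen for IV 20% O2, neither with a drug. The medium was changed every 24 hours in the former and every 48 hours in the latter, so oxygen, culture time and medium renewal cannot be told apart. Both groups are labelled 60 to 70 μm in diameter. The study's text gives a smaller size for the IV 20% O2 oocytes. The mice came from a cross with an SV129 background, as the methods state. The somatic cells of the dissociated ovary were plated with the oocytes and supported them at first.

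Cohesin is a ring that holds sister chromatids together and folds chromatin into loops. The ring is built from SMC3, an SMC1 protein, a kleisin that closes it and a STAG protein bound to the kleisin. Dividing somatic cells use SMC1A, RAD21 and STAG1 or STAG2, whereas germ cells add the meiotic versions SMC1B, REC8 or RAD21L, and STAG3. In the mouse oocyte, meiotic cohesion is laid down in the fetal ovary and must hold until the meiotic divisions, while RAD21 cohesin forms chromatin loops in the growing oocyte.

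The deposited table holds 1 pooled value per gene and condition, so no value below has an SD, a replicate check or a p-value. The values are log2 of RPM, the reads of a gene set relative to all reads of its column, without a correction for gene length. The implied depth was 132185259 reads in the IV 5% O2 column but only 40875370 in the IV 20% O2 column, so the former is more precise. Brackets give exact 95% Clopper-Pearson intervals of the log2 ratio of the columns, which cover counting error only. Differences are IV 5% O2 minus IV 20% O2 on log2(RPM + 1), over 14704 genes whose mean level reached 1 RPM, and a gene was called at a difference of at least 2-fold. All 9 cohesin genes passed this filter. The median difference of all genes tested was 0.26, so a difference of 0 lies below the middle of the transcriptome.

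All 4 general subunits among the members had higher values in IV 5% O2, with a median log2 difference of 0.96, but only 1 of them, Smc1a, was past 2-fold. Of the meiotic subunits, Smc1b was at -0.39 and Stag3 at 0.12, both under the median of all genes and neither past 2-fold. Of 9 members, 2 were called higher in IV 5% O2, Smc1a and Sgo2a, beside 18.7% of all genes tested. Called lower were 0 members, beside 9.22% of all genes tested. By any size, 8 of 9 members were higher in IV 5% O2, beside 62.6% of all genes tested. The median of the 9 members was 0.69. With median-ratio scaling, 4 of 4 general subunits, 0 of 2 meiotic subunits and 2 of the 3 further genes were higher. That scaling left 1 member called higher, beside 11.6% of all genes tested, whose median difference was then -0.04. With so few members these shares describe the list and do not set it apart from other genes.

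**Figure D1:**
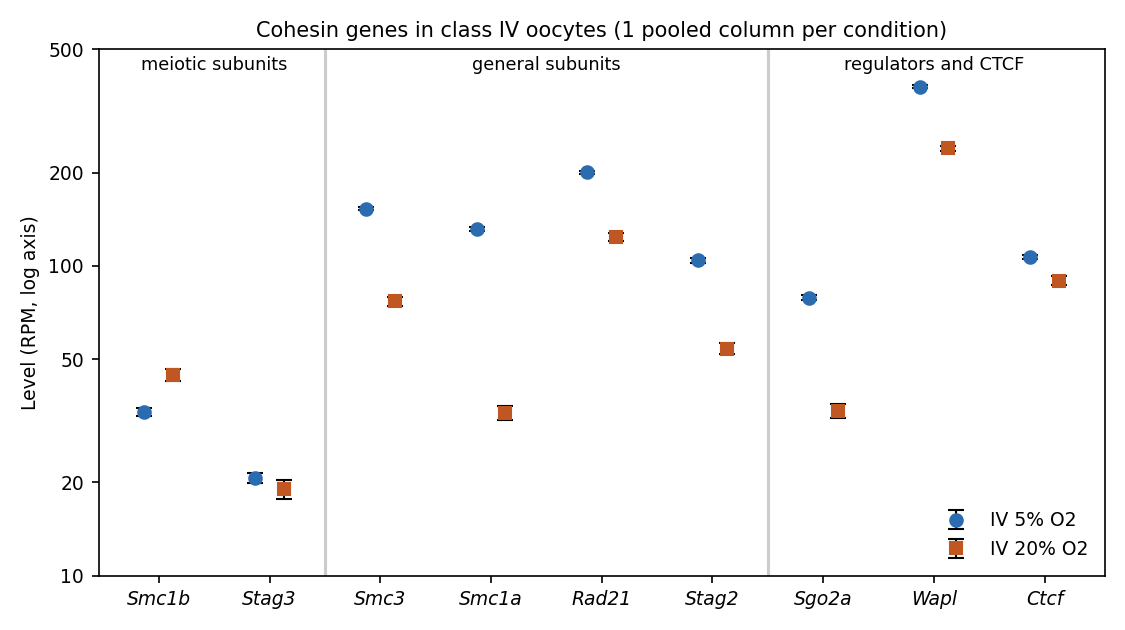
Level of each cohesin gene in RPM on a log axis, with circles for IV 5% O2 and squares for IV 20% O2, each from 1 pooled column, and bars for the exact 95% Poisson interval of the reads. The 4 general subunits lie higher in IV 5% O2, Smc1b lies higher in IV 20% O2, and the intervals of Stag3 overlap.

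General cohesin genes are also expressed by somatic cells, and markers of the cell types are given beside them here. The 9 oocyte markers summed to 9287 RPM under 5% oxygen against 13069 RPM under 20%, so both columns held oocyte RNA. The 9 theca and stroma markers found, of 12 listed, summed to 39.3 RPM under 5% oxygen against 4.99 RPM under 20%, and 3 of them, Col1a2, Vim and Dcn, had 0 reads in IV 20% O2, where 3 reads are 0.0734 RPM. The theca and stroma sum was led by Cyp11a1, at 16.4 RPM against 0.12 RPM, while Star and Fn1 kept 76 and 94 reads in IV 20% O2. The 5 granulosa markers found, of 8 listed, summed to 22.6 and 12.2 RPM. Among them only Fshr went the other way, with 0 reads in IV 5% O2 and 6 in IV 20% O2. The part of somatic cells in the differences of Smc1a and the other general subunits was not tested. Fewer cells of a type and less RNA per cell cannot be told apart in these bulk samples. Smc1a and Stag2 lie on chromosome X, where the median difference of the 470 genes tested was 0.01, below that of all genes.

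Smc1a showed the largest difference of the members. It encodes the general SMC1 subunit and lies on chromosome X (GRCm38, chrX:152016428-152062694, plus strand, 25 exons in its longest transcript). Its level was 131 RPM in IV 5% O2, from 17340 reads, and 33.4 RPM in IV 20% O2, from 1367 reads. The IV 5% O2 value was thus 3.92-fold higher, with a log2 difference of 1.94 [1.89, 2.05], above 97% of all genes tested. The difference stayed past 2-fold under each scaling tried, at 1.63 at the least with median-ratio scaling.

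Smc1b, the meiotic paralogue of Smc1a, differed the other way. The gene lies at chr15:85064689-85131964 on the minus strand. Its level was 33.8 RPM in IV 5% O2, from 4463 reads, and 44.5 RPM in IV 20% O2, from 1818 reads. The IV 20% O2 value was 1.32-fold higher, with a log2 difference of -0.39 [-0.48, -0.32], which places Smc1b above only 22.3% of all genes tested. With the values as deposited, Smc1b was the only member with a lower value in IV 5% O2.

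Reads of the paralogues can be told apart, as their most alike coding stretches show. The windows below are the 100 bases within 1 coding exon of each gene that match best without gaps, and capitals mark the bases that differ. They come from GRCm38 and are written 5′ to 3′ on the gene's own strand. The Smc1b window is chr15:85069687-85069786 on the minus strand and the Smc1a window is chrX:152059638-152059737 on the plus strand, each in coding exon 22 of 25.
Smc1b: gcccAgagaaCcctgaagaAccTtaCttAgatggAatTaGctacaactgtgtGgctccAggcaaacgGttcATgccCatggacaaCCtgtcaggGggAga
Smc1a: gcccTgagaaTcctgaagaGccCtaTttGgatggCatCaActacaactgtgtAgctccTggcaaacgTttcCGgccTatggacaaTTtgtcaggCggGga

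Even here 19 of 100 bases differed, and the longest identical run anywhere in the coding sequences was 23 bases, against a read length of 100 bases. In a search at steps of 10 bases, no exonic stretch of 50 or 100 bases of Smc1a or Smc1b had a further copy in the genome.

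The SMC1 pair therefore changed its order between the columns. Levels of different genes are compared here only per length, as RPM per kilobase of annotated exon. In IV 5% O2, Smc1b stood at 8.34 and Smc1a at 22.7 RPM per kilobase, and Smc1b made up 26.8% of the pair (26.2% to 27.5%). In IV 20% O2, Smc1b stood at 11.0 and Smc1a at 5.80 RPM per kilobase, and Smc1b made up 65.5% (63.9% to 67.1%). Smc1a was thus the more abundant SMC1 transcript in IV 5% O2 and Smc1b in IV 20% O2. The ratio of Smc1b to Smc1a was 5.17-fold higher in IV 20% O2, a log2 ratio of ratios of -2.37 (conditional exact 95% interval -2.48 to -2.26), in which the length of the genes and the scaling of a column cancel. The order held with either of the other lengths tried: with the coding length, Smc1b to Smc1a was 0.25 in IV 5% O2 and 1.31 in IV 20% O2.

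Smc3, the partner of both SMC1 proteins in every cohesin ring, is the reference against which they can be set. The gene lies at chr19:53600398-53645833 on the plus strand. Its level was 153 RPM in IV 5% O2, from 20231 reads, and 76.8 RPM in IV 20% O2, from 3139 reads. The log2 difference was 0.99 [0.94, 1.05], just under 2-fold, and the interval spans that limit. Per kilobase, Smc1a reached 0.82 of Smc3 in IV 5% O2 and 0.42 in IV 20% O2. Smc1b reached 0.30 of Smc3 in IV 5% O2 and 0.79 in IV 20% O2. The sum of both SMC1 transcripts differed less, at 1.13 times Smc3 in IV 5% O2 and 1.21 times in IV 20% O2. Per kilobase of coding sequence, Smc1a was 0.85 of Smc3 in IV 5% O2 and 0.43 in IV 20% O2. Smc1b was then 0.22 and 0.56 of Smc3, so which column held the larger sum depends on the length used.

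**Figure D2:**
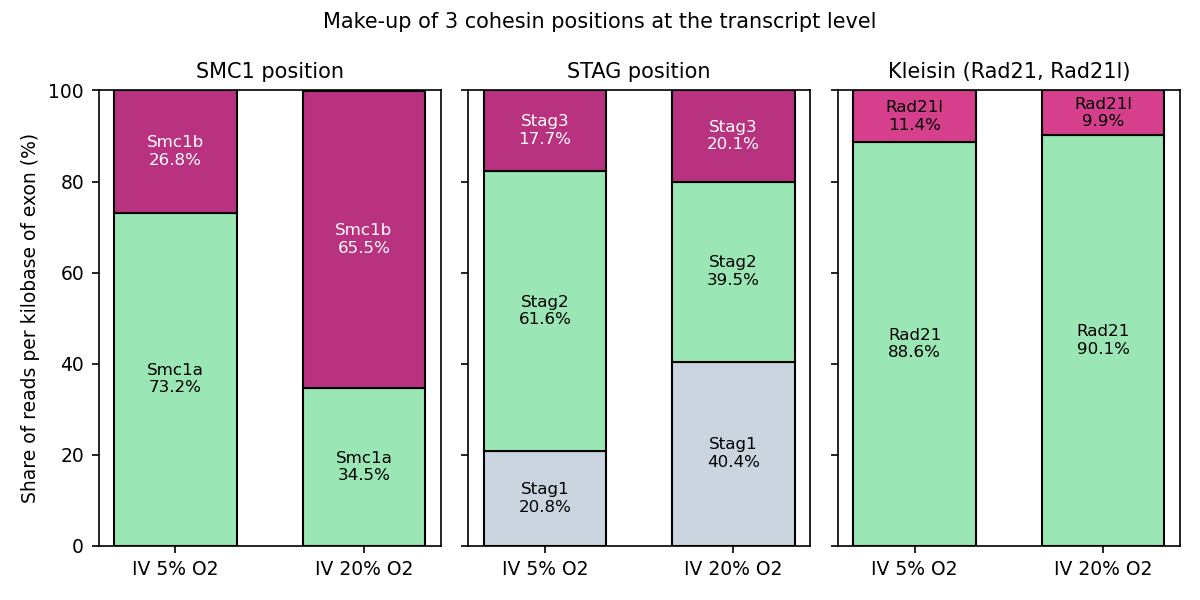
Share of each paralogue among the transcripts for 3 positions of the cohesin ring, in percent of RPM per kilobase of exon, with 1 stacked bar per pooled column. Smc1b makes up 26.8% of the SMC1 transcripts in IV 5% O2 and 65.5% in IV 20% O2, whereas Stag3 makes up 17.7% and 20.1% of the STAG transcripts.

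The STAG subunits bind the kleisin and help to place the ring on chromatin. Stag3, the meiotic version, lies at chr5:138280240-138312393 on the plus strand. Its level was 20.7 RPM in IV 5% O2, from 2734 reads, and 18.98 RPM in IV 20% O2, from 776 reads. The log2 difference was 0.12 [0.01, 0.24], which is under the median of all genes and turned to -0.19, -0.06 or -0.04 with median-ratio scaling, scaling to reads counted on genes, or quantile normalization. The direction of Stag3 is therefore not settled by these data.

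Stag2, the general STAG subunit, lies at chrX:42149317-42277185 on the plus strand. Its level was 104 RPM in IV 5% O2, from 13765 reads, and 54.0 RPM in IV 20% O2, from 2206 reads. The log2 difference was 0.94 [0.88, 1.01]. Stag1, the other general STAG gene, is not among the members and differed the other way, at 49.99 RPM under 5% oxygen against 78.7 RPM under 20%, with a log2 difference of -0.64 [-0.72, -0.59]. Stag2 and Stag1 thus stood apart from each other, although both serve somatic cohesin: the ratio of Stag1 to Stag2 was 3.04-fold higher in IV 20% O2.

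Per kilobase, Stag3 was 0.29 of Stag2 in IV 5% O2 and 0.51 in IV 20% O2. Their ratio was 1.77-fold higher in IV 20% O2, a log2 ratio of ratios of -0.82 (-0.96 to -0.69). Set against Stag1, Stag3 went the other way, with a ratio 1.72-fold higher in IV 5% O2 and a log2 ratio of ratios of 0.78 (0.65 to 0.91). Among all 3 STAG transcripts per kilobase of exon, the Stag3 share was 17.7% in IV 5% O2 and 20.1% in IV 20% O2. The Stag2 share was 61.6% and 39.5%, and the Stag1 share 20.8% and 40.4%. The shares depend on the length used, as Stag3 to Stag2 was 0.20 and 0.36 per kilobase of coding sequence. Between the columns the STAG position therefore differed mainly in Stag2 against Stag1, with Stag2 the most abundant in IV 5% O2. Stag1 and Stag2 stood at 1.02 to 1 in IV 20% O2 per kilobase of exon (0.97 to 1.08), and at 1.47 to 1 per kilobase of coding sequence.

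The STAG paralogues also differ along their most alike stretches. Stag1 and Stag2, the closest pair, differed at 14 of 100 bases there, and their longest identical run anywhere in the coding sequences was 23 bases. The most alike windows of Stag3 (chr5:138296724-138296823) and Stag2 (chrX:42228233-42228332), both on the plus strand and both in coding exon 9 of 33, differed at 24 of 100 bases, again shown in capitals.
Stag3: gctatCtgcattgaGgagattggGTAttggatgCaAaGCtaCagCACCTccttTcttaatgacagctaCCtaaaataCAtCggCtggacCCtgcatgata
Stag2: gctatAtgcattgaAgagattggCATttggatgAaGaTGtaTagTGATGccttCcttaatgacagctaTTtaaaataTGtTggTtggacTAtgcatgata

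Rad21, the general kleisin that separase cuts, lies at chr15:51962240-51991747 on the minus strand. Its level was 200.4 RPM in IV 5% O2, from 26485 reads, and 124 RPM in IV 20% O2, from 5070 reads. The log2 difference was 0.69 [0.65, 0.74], the smallest of the 4 general subunits among the members. Per kilobase, Rad21 exceeded Smc3 in both columns, by 1.71 times in IV 5% O2 and 2.11 times in IV 20% O2.

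Rad21l, a meiotic kleisin that is not among the members, was at 10.1 RPM under 5% oxygen against 5.33 RPM under 20%, from 1330 and 218 reads. Its log2 difference of 0.80 [0.71, 1.13] was near that of Rad21. Per kilobase, Rad21l was 11.4% of the pair with Rad21 in IV 5% O2 (10.8% to 11.9%) and 9.88% in IV 20% O2 (8.70% to 11.2%), so these intervals overlap. Per kilobase of coding sequence, the shares were 5.46% and 4.71%. The log2 ratio of ratios was 0.22 (0.01 to 0.44), opposite in sign to those of Smc1b with Smc1a and of Stag3 with Stag2. The comparisons of Rad21l with Rad21 and of Stag3 with Stag1 were added after the values were seen.

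Shugoshin 2, encoded by Sgo2a, guards cohesin at centromeres from cleavage during the first meiotic division. Sgo2a lies at chr1:57995971-58025899 on the plus strand. Its level was 78.9 RPM in IV 5% O2, from 10436 reads, and 33.9 RPM in IV 20% O2, from 1387 reads. The log2 difference was 1.19 [1.14, 1.30], and it was 0.88 with median-ratio scaling, which is under 2-fold. Of the exonic bases of Sgo2a, 35.0% lie on exons of Kctd18 on the opposite strand, and Kctd18 had a log2 difference of 1.20. The libraries mark strand, but whether strand was used in the counting is not given in the sources used here, so reads of Sgo2a and Kctd18 may be shared. Sgo1, the shugoshin of mitotic cells, stood at 33.5 RPM under 5% oxygen and at 33.0 RPM under 20%.

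Wapl, which opens the ring and releases cohesin from chromatin, was the most abundant member per kilobase of exon in both columns. The gene lies at chr14:34673928-34747983 on the plus strand. Its level was 379 RPM in IV 5% O2, from 50095 reads, and 239 RPM in IV 20% O2, from 9779 reads. The log2 difference was 0.66 [0.63, 0.70]. Wapl was 2.07 times Smc3 per kilobase in IV 5% O2 and 2.61 times in IV 20% O2, so it was higher relative to Smc3 in IV 20% O2.

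Ctcf, the DNA-binding protein at which loop-forming cohesin halts, differed little. The gene lies at chr8:105636568-105682922 on the plus strand. Its level was 107 RPM in IV 5% O2, from 14127 reads, and 89.5 RPM in IV 20% O2, from 3660 reads. The log2 difference of 0.25 [0.20, 0.31] equalled the median of all genes within 0.01. With median-ratio scaling it was -0.06, so its direction is not settled either.

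Ranked per kilobase of exon in IV 5% O2, the members ran from Wapl at 57.2 through Rad21, Smc3, Smc1a, Ctcf, Stag2, Sgo2a and Smc1b to Stag3 at 3.61. In IV 20% O2 they ran from Wapl at 36.1 through Rad21, Ctcf, Smc3, Smc1b, Stag2, Smc1a and Sgo2a to Stag3 at 3.31. Smc1a moved from rank 4 to rank 7 and Smc1b from rank 8 to rank 5, while Wapl, Rad21, Stag2 and Stag3 kept their ranks. Counting intervals of neighbours did not overlap in either order, but they cannot show the spread between cultures. Per kilobase of coding sequence, neither Wapl and Rad21 in both columns nor Sgo2a and Smc1a in IV 20% O2 differed beyond counting error. By that length the ranks differed: Smc1a moved from rank 5 to rank 8, Smc1b from rank 8 to rank 6 and Stag2 from rank 6 to rank 5. Among all genes with a length, Smc1a lay at percentile 86.6 of RPM per kilobase in IV 5% O2 and at 62.8 in IV 20% O2, whereas Stag3 lay at 50.02 and 50.96.

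**Figure D3:**
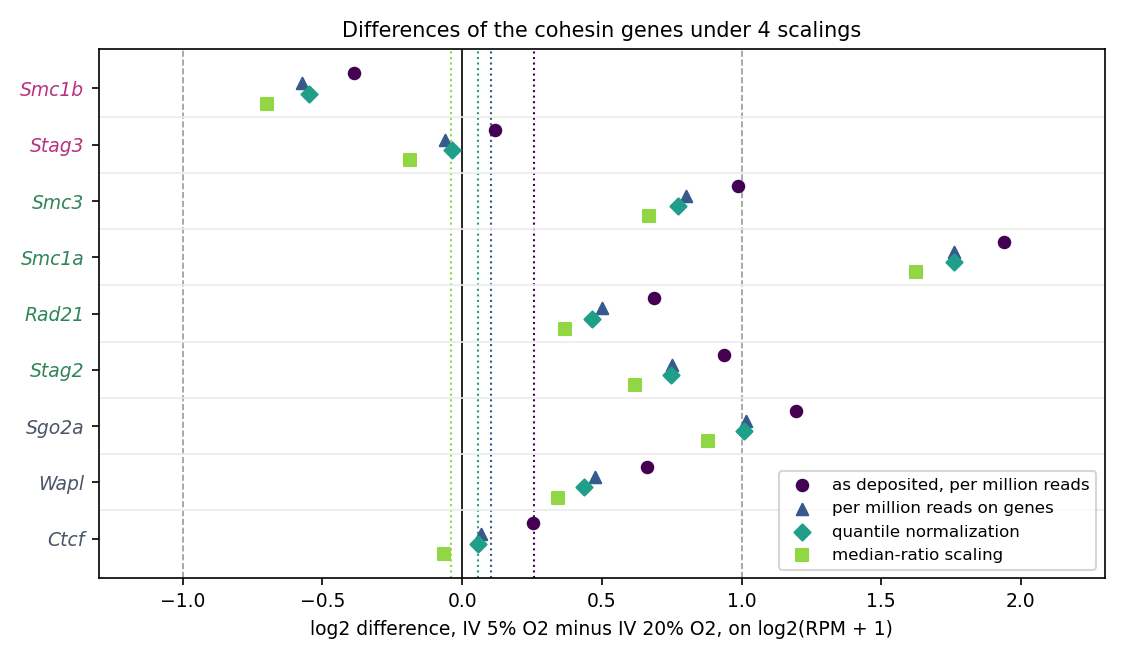
Log2 difference of each cohesin gene on log2(RPM + 1), IV 5% O2 minus IV 20% O2, with 1 symbol per scaling. Dotted lines mark the median of all genes tested under each scaling and dashed lines mark 2-fold. Smc1a lies past 2-fold under each scaling, Sgo2a under 3 of 4, and the symbols of Stag3 and Ctcf lie on both sides of 0.

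The scaling moved all members together. The median difference of all genes was -0.04 after median-ratio scaling, 0.06 after quantile normalization and 0.10 after scaling to reads counted on genes. Of the genes at least 2-fold apart, 67.0% were higher in IV 5% O2 with the values as deposited, 45.6% after median-ratio scaling, 48.6% after quantile normalization and 56.5% after scaling to reads counted on genes. Smc3, Smc1a, Rad21, Stag2, Sgo2a and Wapl lay above the median of all genes, and Smc1b and Stag3 below it, under these 4 scalings. Median-ratio scaling and scaling to reads counted on genes multiply a whole column by a constant. Of the alternatives, only quantile normalization could therefore readily change a gene's side of the median. Relative to that median, Smc1a was higher by 1.68 and Smc1b was at -0.65 with the values as deposited.

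Other cohesin factors did not share 1 direction. Counts of the lists are read against the 18.7% of all genes tested that were at least 2-fold higher and the 9.22% that were at least 2-fold lower, or 11.6% and 13.9% with median-ratio scaling. Of the 5 genes of loading and acetylation, 1 was at least 2-fold higher in IV 5% O2 and 0 were lower. Their median was 0.15, and -0.16 with median-ratio scaling. The gene past 2-fold was Esco1, an acetyltransferase that locks the ring, at 393 RPM under 5% oxygen against 146 RPM under 20%, with a log2 difference of 1.43 [1.39, 1.47]. Of its exonic windows of 100 bases, 7.48% occurred more than 1 time in the genome. The loader Nipbl stood at 155 and 186 RPM. The partners that govern release with Wapl also differed among themselves, and none of them was past 2-fold. Pds5a and Pds5b, which bind Wapl, had log2 differences of -0.49 and -0.28, whereas Cdca5, which encodes sororin, the protector of cohesin from Wapl, had 0.79.

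The genes of centromeric protection include the phosphatase PP2A, which shugoshin recruits. Of 13, 4 were at least 2-fold higher in IV 5% O2 and 0 lower, with a median of 0.54, beside 18.7% and 9.22% of all genes. With median-ratio scaling 2 were past 2-fold, since Ppp2r5a was at 0.73 and Ppp2r5d at 0.96, and the median was 0.22. With the values as deposited, the 4 were the PP2A regulatory subunits Ppp2r5b at 1.95, Ppp2r5d at 1.27 and Ppp2r5a at 1.04 on the log2 scale, and Meikin, a meiotic kinetochore protein that works with shugoshin, at 1.58. Of the exonic windows of Ppp2r5a, 25.9% at 100 bases were repeated in the genome, so its value is uncertain. Of the 4 genes of cohesin cleavage, 1 was past 2-fold, Cdc20, the activator of the ubiquitin ligase that frees separase, at 111 RPM under 5% oxygen against 52.3 RPM under 20%. Its log2 difference of 1.07 fell under 2-fold with each of the other scalings, at 0.75 with median-ratio scaling, so that 0 of the 4 were then called.

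The proteins of the meiotic chromosome axis and synaptonemal complex assemble on meiotic cohesin in prophase. Of 8 genes tested among 10 listed, 4 were at least 2-fold higher in IV 5% O2 and 0 lower, beside 18.7% and 9.22% of all genes. Their median was 1.29, and 0.99 with median-ratio scaling, under which 4 were again called. Sycp3, which builds the axis, was at 123 RPM under 5% oxygen against 22.3 RPM under 20%, with a log2 difference of 2.41 [2.37, 2.56]. Sycp1, which forms the transverse filaments, had a log2 difference of 1.69. Syce1, a part of the central region, had 2.23 but rested on 51 reads in IV 20% O2: the pseudocount pulled it below its counting interval of 2.53 to 3.37, and it was 2.84 with a pseudocount of 0.1 and 1.22 with one of 5. Hormad1, an axis protein, had 1.63, with 15.9% of its exonic windows of 100 bases repeated. Of the 8, 7 were higher in IV 5% O2 under each scaling, whereas Hormad2 stood at 0.05 and turned to -0.22 with median-ratio scaling. By any size, 62.6% of all genes tested were higher with the values as deposited.

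The sister complexes of cohesin are condensin, which compacts chromosomes, and the Smc5/6 complex, which acts in repair. Of 8 condensin genes, 0 were past 2-fold in either direction and the median was 0.71. The count depends on the scaling, since Ncapd2, at -0.88, was at -1.19 with median-ratio scaling and at -1.04 with quantile normalization. Of 6 Smc5/6 genes tested among 7 listed, 3 were at least 2-fold higher and 0 lower, with a median of 0.95, beside 18.7% and 9.22% of all genes. These were Nsmce2 at 1.72, Smc5 at 1.29 and Nsmce1 at 1.04 on the log2 scale. With median-ratio scaling only Nsmce2 was past 2-fold, while Smc5 was at 0.98 and Nsmce1 at 0.73. Over all 50 of these further chromosome genes, the median was 0.71, 13 were at least 2-fold higher and 0 were lower. With median-ratio scaling 8 were higher and 1 was lower, and the median was 0.39.

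**Figure D4:**
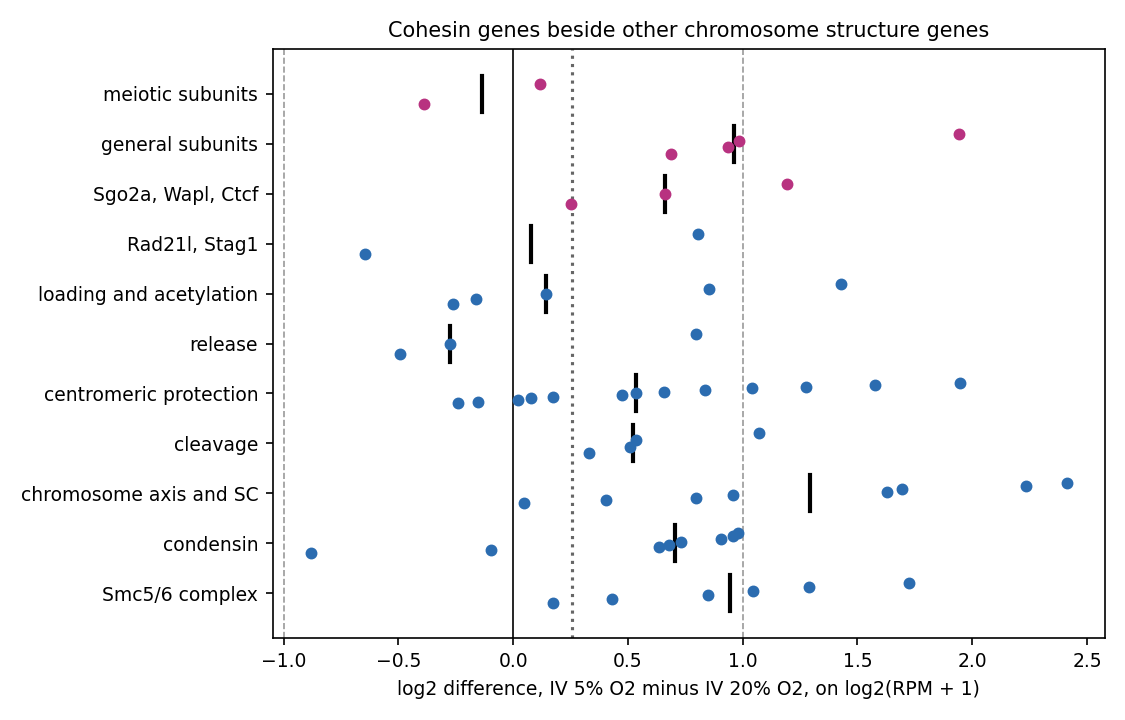
Log2 difference of every gene tested in each list on log2(RPM + 1), IV 5% O2 minus IV 20% O2, with 1 point per gene and a black bar for the median of the list (SC, synaptonemal complex). The dotted line is the median of all genes at 0.26 and the dashed lines mark 2-fold. The meiotic subunits lie at -0.39 and 0.12, under the dotted line, while axis genes reach 2.41.

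The promoters of the members were searched for letters that the choice of genes did not use. RefSeq start sites of GRCm38.p6 were matched for 7 of 9 members, with 250 bases before and 50 after the start. TCCCGC, the core of many E2F sites, was searched on both strands, as was the E-box CACGTG, both of which are known from promoters of germline genes. TCCCGC or its reverse complement was found in 6 of 7 members, all but Wapl, and in 20.0% of all 32851 promoters or 32.3% of those of genes in the table. CACGTG was found only in Stag3, and in 7.15% of all promoters. Both meiotic subunits and both general subunits with a promoter here, Smc3 and Smc1a, held TCCCGC, so these letters do not divide them. The 7 promoters held 19 to 47 CpG, against a median of 7 over all promoters, which was not taken for the genes in the table alone. Outside the members, the promoter of Rad21l held 2 CpG and no TCCCGC. That of Stag1 held 43 CpG and TCCCGC, but its start site lies 45650 bases from the start of its row. The meiotic promoters are shown from 250 bases before to 10 after the start, with both motifs in capitals, for Smc1b at chr15:85131948-85132207 on the minus strand and for Stag3 at chr5:138280259-138280518 on the plus strand. The RefSeq start site of Stag3 used here lies 269 bases inside the annotated gene span given above, so this stretch lies within that span.
Smc1b: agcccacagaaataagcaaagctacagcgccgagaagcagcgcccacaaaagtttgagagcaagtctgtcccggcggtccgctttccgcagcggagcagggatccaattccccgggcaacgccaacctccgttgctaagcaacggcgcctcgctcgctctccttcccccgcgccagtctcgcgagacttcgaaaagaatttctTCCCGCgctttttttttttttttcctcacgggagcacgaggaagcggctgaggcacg
Stag3: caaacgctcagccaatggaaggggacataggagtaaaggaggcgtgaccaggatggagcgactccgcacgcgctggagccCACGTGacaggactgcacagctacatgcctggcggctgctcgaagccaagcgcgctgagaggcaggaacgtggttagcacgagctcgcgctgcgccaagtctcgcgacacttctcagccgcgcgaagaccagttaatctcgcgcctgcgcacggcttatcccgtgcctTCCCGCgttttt

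In Smc1b the motif began 47 bases before the start site. In Stag3 TCCCGC began 2 bases before its RefSeq start site and CACGTG 170 bases before it, both after the start of the annotated gene span. In Smc1a, by contrast, TCCCGC began 39 bases after the start site. These matches describe the letters and do not show that a factor binds there.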

How the data were processed

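RNA was made from 280 oocytes per condition, depleted of ribosomal RNA and sequenced as paired-end reads of 100 bases. Per the labels, Trim Galore and TopHat2 2.0.9 and the build GRCm38 were used. The authors quantitated reads over merged exons in SeqMonk and deposited log2 values, 1 pooled column per condition, and how libraries were combined is not given in the sources used here. After log2 was undone, at least 99.9% of the values came out as whole reads within 0.05 read, the same for every gene, so they were read as RPM without the length correction that the study's methods describe, and unread genes were set to 0. The table holds 1 further value column, which belongs to no sample here and was not used. RRBS and PBAT libraries were not analysed here.

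The planned limma test could not be run on pooled columns. Genes whose mean reached 1 RPM were compared on log2(RPM + 1), and at least 2-fold counted as called. Alternatives were pseudocounts of 0.1 and 5, other filters, scalings and lengths, and, chosen after seeing the data, reads counted on genes. Lengths, coordinates and overlaps came from GENCODE M21, where 16414 of 16591 rows matched exactly. Of 18 repeated names the row with the highest mean was kept. All members were named, with listed genes past 2-fold (at most 4 per list), Rad21l and Stag1. Sgo1, Nipbl, Pds5a, Pds5b, Cdca5, Hormad2, Ncapd2 and Kctd18 were named after their values were seen. Members and lists were chosen with earlier results of these data known. Scripts were tested on simulated data. Python 3.11.15 and scipy 1.17.1 were used.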

Additional observations from a re-analysis of the deposited data

How the results depend on the processing

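No paired analysis was possible because the deposited columns pool the libraries of a condition, and leaving out a library could not be run for the same reason. Depth limits the low genes of IV 20% O2, of the chromosome genes named Syce1 most, with 51 reads. Of 54 differences of the members under other settings, 4 turned: Stag3 to -0.19 with median-ratio scaling, -0.0376 after quantile normalization and -0.0621 after scaling to reads counted on genes, and Ctcf to -0.0638 with median-ratio scaling. A pseudocount cannot turn a sign, and summing the rows of a gene changed nothing for members with 1 row each. Only the scalings could therefore turn a value. With median-ratio scaling 1 member, Smc1a, was at least 2-fold higher. Under these 3 scalings in the same order, the median was -0.44, -0.29 and -0.32 for the meiotic subunits, which are only Smc1b and Stag3. For the general subunits it was 0.64, 0.76 and 0.78, and for all members 0.37, 0.46 and 0.50. The subunits outside the members went against this split with median-ratio scaling, the meiotic Rad21l at 0.52 and the general Stag1 at -0.96. Per length of the longest transcript and per coding length, Smc1b to Smc1a was 0.30 and 0.25 in IV 5% O2 and 1.54 and 1.31 in IV 20% O2, and Stag3 to Stag2 was 0.26 and 0.20 in IV 5% O2 and 0.46 and 0.36 in IV 20% O2. Over all genes, 1202 were at least 2-fold higher and 706 lower with a pseudocount of 5, against 2753 and 1356. The counts were 1700 and 2031 with median-ratio scaling and 1764 and 1866 with quantile normalization. The cause of these moves was not tested.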
